A study of Mus musculus with 29 samples.

Results

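Accessible chromatin of all mouse retinal bipolar cells (pan-BC) was compared with that of wild-type green cones over all 110715 regions of 200 bp in the deposited table, 2 libraries against 2. Of these regions 108448 held enough reads to be tested, 34863 (32.1%) differed, 26183 (24.1%) were higher in pan-BC and 8680 (8.00%) were higher in green cones. Pan-BC were sorted as GFP-positive cells from retinas of Otx2-GFP+/- mice at postnatal day 44 (library 1) and day 43 (library 2). GFP in these mice is fused to the protein made from 1 of the endogenous *Otx2* alleles, and retinas of more than 1 mouse were pooled. The labels also give these mice as Grm6-YFP+/+, a transgene that marks ON bipolar cells, whereas the study's own sample table gives the 2 pan-BC libraries without it. Green cones were GFP-positive cells from Opn1mw-GFP mice at day 56, sorted once, and came from an earlier study by this laboratory. No green cone library carries the bipolar reporters and no pan-BC library carries the cone reporter, and cell class, study, reporter and age therefore cannot be told apart. The fit also held 2 libraries each of the ON class (ON-BC) and the OFF class (OFF-BC) of bipolar cells, of rods from Nrl-eGFP mice and of photoreceptors from Nrl-eGFP;NrlKO mice, which lack rods and are called blue cones. ON-BC and OFF-BC were from Otx2-GFP+/-; Grm6-YFP+/+ mice, with library 1 of each at day 42 and library 2 of each at day 46, and ON-BC were sorted once and OFF-BC in 2 rounds. Rods and blue cones were from the earlier study at day 56. RNA of pan-BC was from Otx2-GFP+/- mice at days 47, 44 and 44, and that of blue cones from day 56, with 3 libraries each. Nothing in the labels says that the 2 libraries of a population came from separate litters or sort days, so p-values measure the spread between these samples.

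ATAC-seq uses a transposase that inserts sequencing adapters where DNA is not covered by nucleosomes or other proteins, and reads therefore pile up at active promoters and enhancers. Bipolar cells are the interneurons that carry the output of rods and cones to the inner retina, while green cones are daylight photoreceptors that express medium-wave opsin. Both classes make the homeodomain factors OTX2 and CRX, which bind TAATCC (a K50 homeodomain string, named after a lysine of the homeodomain). Bipolar cells also make homeodomain factors of the Q50 type, which bind TAATTA or TAATTG, and bHLH factors such as NEUROD4 and BHLHE23, which bind E-boxes (CANNTG). Neither kind is particular to them, as the study names RAX (Q50) and NEUROD1 (bHLH) as factors of photoreceptors.

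The sequences below are the 5 regions with the largest difference in each direction, plus regions at *Isl1*, *Cabp5*, *Opn1mw* and *Casz1*, which are members of gene lists described later. They were read from the reference genome GRCm38 on its plus strand, 5′ to 3′, and capitals mark the K50 string, either Q50 string, and the E-boxes with central GC or GA, which are CAGCTG and its relative CAGATG, on either strand. On the opposite strand the K50 string reads GGATTA and the last E-box reads CATCTG, while TAATTG reads CAATTA. Regions higher in pan-BC were those assigned to *Mir6379* (chr3:46848569-46848768, intergenic), *Ccser1* (chr6:61140479-61140678, 39747 bp before the transcription start site or TSS, intergenic), *Epha7* (chr4:28448150-28448349, intergenic), *Pcdh9* (chr14:93621177-93621376, in an intron), *Foxp2* (chr6:15268171-15268370, in an intron), *Isl1* (chr13:116508955-116509154, intergenic) and *Cabp5* (chr7:13397948-13398147, promoter). Of the first 5, all but that of *Foxp2* hold a marked E-box, and those of *Epha7* and *Pcdh9* also hold the K50 string, as do the *Isl1* and *Cabp5* regions.
Mir6379: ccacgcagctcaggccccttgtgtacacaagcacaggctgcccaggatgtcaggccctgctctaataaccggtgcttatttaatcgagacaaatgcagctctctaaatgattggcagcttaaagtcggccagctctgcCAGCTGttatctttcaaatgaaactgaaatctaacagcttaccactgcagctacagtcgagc
Ccser1: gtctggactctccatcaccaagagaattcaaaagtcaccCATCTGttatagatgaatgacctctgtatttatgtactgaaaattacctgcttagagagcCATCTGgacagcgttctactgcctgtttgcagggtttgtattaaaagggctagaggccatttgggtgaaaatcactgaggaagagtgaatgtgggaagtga
Epha7: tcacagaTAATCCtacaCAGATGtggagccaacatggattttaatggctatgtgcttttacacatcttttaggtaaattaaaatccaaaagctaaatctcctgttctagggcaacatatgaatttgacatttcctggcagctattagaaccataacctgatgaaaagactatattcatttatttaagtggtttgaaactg
Pcdh9: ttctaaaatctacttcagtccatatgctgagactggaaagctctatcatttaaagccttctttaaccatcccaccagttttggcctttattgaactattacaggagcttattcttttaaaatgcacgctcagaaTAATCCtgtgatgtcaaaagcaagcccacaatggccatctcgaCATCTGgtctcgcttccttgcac
Foxp2: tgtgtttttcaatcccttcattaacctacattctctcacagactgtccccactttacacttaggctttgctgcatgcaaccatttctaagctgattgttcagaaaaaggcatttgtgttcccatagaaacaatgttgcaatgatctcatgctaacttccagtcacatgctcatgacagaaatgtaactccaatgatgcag
Isl1: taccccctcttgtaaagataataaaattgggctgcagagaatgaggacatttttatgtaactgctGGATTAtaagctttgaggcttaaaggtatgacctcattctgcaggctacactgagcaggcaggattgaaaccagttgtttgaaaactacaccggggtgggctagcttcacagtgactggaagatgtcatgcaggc
Cabp5: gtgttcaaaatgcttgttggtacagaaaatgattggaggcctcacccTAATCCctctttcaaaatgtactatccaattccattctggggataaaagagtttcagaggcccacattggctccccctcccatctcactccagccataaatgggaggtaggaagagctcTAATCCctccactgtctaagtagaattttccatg

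Regions higher in green cones were those assigned to *Hspb1* (chr5:135893173-135893372, intergenic), *Rgs22* (chr15:36104104-36104303, in an intron), *Mir7688* (chr10:93402096-93402295, intergenic), *Tbc1d22a* (chr15:86567079-86567278, intergenic), *Larp1* (chr11:57933162-57933361, intergenic), *Opn1mw* (chrX:74123515-74123714, intergenic, 3852 bp before the TSS) and *Casz1* (chr4:148889123-148889322, promoter). The *Hspb1* and *Mir7688* regions hold no marked string, and that of *Rgs22* holds both the K50 string and a marked E-box. In the *Tbc1d22a* region a K50 string and TAATTA share letters, and the *Casz1* promoter holds 2 K50 strings and 1 Q50 string.
Hspb1: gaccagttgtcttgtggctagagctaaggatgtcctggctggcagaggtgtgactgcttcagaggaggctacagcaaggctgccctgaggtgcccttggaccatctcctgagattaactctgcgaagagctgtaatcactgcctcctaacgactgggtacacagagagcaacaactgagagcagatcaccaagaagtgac
Rgs22: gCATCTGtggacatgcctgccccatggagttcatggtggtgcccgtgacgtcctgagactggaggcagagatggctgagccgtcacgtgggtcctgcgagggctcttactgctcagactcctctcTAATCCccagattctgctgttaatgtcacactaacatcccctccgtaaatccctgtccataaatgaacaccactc
Mir7688: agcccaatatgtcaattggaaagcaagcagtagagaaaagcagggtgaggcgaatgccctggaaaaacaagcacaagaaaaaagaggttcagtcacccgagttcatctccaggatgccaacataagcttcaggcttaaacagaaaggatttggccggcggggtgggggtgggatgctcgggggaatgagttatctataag
Tbc1d22a: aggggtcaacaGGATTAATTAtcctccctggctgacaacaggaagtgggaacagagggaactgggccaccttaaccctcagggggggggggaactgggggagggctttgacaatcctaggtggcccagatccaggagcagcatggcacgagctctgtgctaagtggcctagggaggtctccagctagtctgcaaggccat
Larp1: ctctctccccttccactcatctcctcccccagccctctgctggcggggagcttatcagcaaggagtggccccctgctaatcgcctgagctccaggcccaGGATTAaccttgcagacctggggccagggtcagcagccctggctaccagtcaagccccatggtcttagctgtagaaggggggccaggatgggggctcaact
Opn1mw: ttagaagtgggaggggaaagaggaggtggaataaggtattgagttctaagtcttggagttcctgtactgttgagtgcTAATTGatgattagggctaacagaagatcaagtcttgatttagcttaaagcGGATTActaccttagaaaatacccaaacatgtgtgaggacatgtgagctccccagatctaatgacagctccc
Casz1: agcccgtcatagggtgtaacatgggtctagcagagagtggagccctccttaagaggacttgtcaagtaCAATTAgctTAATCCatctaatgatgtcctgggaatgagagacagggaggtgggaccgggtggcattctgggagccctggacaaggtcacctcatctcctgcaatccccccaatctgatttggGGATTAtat

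Values are normalized counts, which are reads in a region divided by a size factor of the library, and a fold change is on the scale of log2 of the normalized count plus 1, pan-BC minus green cones. The pan-BC libraries held 7937202 and 12345845 counted reads, the green cone libraries 7574103 and 4176776, and a single read was worth 0.570 to 1.41 normalized counts. Log2 values of the 2 pan-BC libraries correlated over regions with r = 0.928 and those of the 2 green cone libraries with r = 0.903. A region was called when limma's test against a log2 fold change of 1 (treat), with Benjamini-Hochberg adjustment over all regions tested, gave an adjusted p below 0.05.

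More regions were open to a higher level in pan-BC than in green cones, and the differences lay away from promoters. Of all calls 75.1% were higher in pan-BC. The tested regions were not balanced between the populations. Peaks of the pan-BC libraries overlapped 62.3% and 71.2% of them by at least 1 bp, and peaks of the green cone libraries 48.8% and 37.5%. The part of the choice of regions in this share, and in the shares by distance below, was not tested. Called regions had a median of 44.0 and 53.6 normalized counts in the pan-BC libraries and 3.07 and 2.82 in the green cone libraries where pan-BC was higher, and of 8.00 and 7.41 against 65.3 and 67.6 where green cones were higher. Each of the 34863 called regions had both libraries of the higher population above both of the other, but so did 54709 of the 73585 regions that were not called. Median log2 fold changes were 3.68 (quartiles 3.04 and 4.43) for the regions higher in pan-BC and -2.92 (quartiles -3.39 and -2.47) for those higher in green cones. With the 2528 regions that had no read in green cones and the 116 that had none in pan-BC set to a floor of 3 reads per library, the medians were 3.52 and -2.91. Over all tested regions the median log2 fold change was 0.44, and TMM scaling of the same reads moved it to 0.23. The scaling gave 23031 regions higher in pan-BC and 10647 higher in green cones, with 68.4% of calls higher in pan-BC. Leaving out pan-BC library 2 gave 15345 regions higher in pan-BC and 5622 higher in green cones, and without green cone library 1 or 2 the second count was 5523 or 5374. Bulk libraries cannot separate a lower level in every cell from fewer cells with open chromatin.

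**Figure D1:**
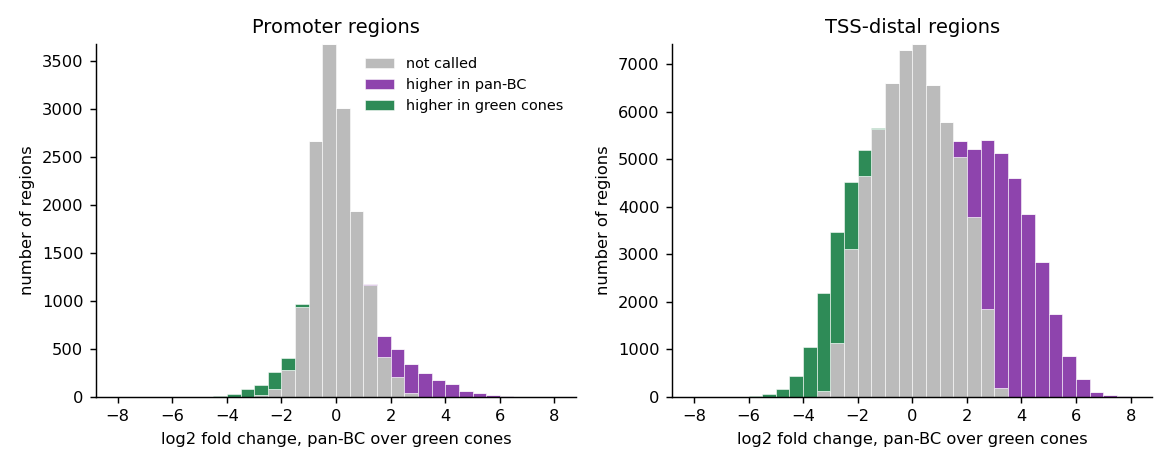
Number of tested regions by log2 fold change (pan-BC over green cones, bins of 0.5), for promoters on the left and TSS-distal regions on the right, coloured by call. Promoters center on 0, whereas the distal distribution has a broad shoulder of regions higher in pan-BC between 2 and 5.

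Promoters, defined here as regions centered from 1000 bp before to 100 bp after a RefSeq TSS, were mostly alike in level. Of 16490 promoters tested, 1498 (9.08%) were higher in pan-BC and 549 (3.33%) in green cones, with a median log2 fold change of 0.0039 over all of them. Of 91958 TSS-distal regions, 24685 (26.8%) were higher in pan-BC and 8131 (8.84%) in green cones, and the median was 0.64. The share called higher in pan-BC rose at each step of distance, from 15.2% of distal regions within 10 kb of a TSS to 22.1% at 10 to 50 kb, 31.3% at 50 to 100 kb and 47.6% of the 18391 regions beyond 100 kb. The share called higher in green cones was 10.2%, 10.1%, 8.14% and 5.14% over the same steps. Regions higher in pan-BC lay a median of 51059 bp from a TSS, those higher in green cones 18659 bp and those not called 14364 bp. By annotation, 53.0% of the regions higher in pan-BC were intergenic and 42.4% intronic, against 39.6% and 56.7% of those higher in green cones. Median GC content was 46% for pan-BC regions, 49% for green cone regions and 52% for regions not called. These shares are descriptions of the regions and were given no test.

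**Figure D2:**
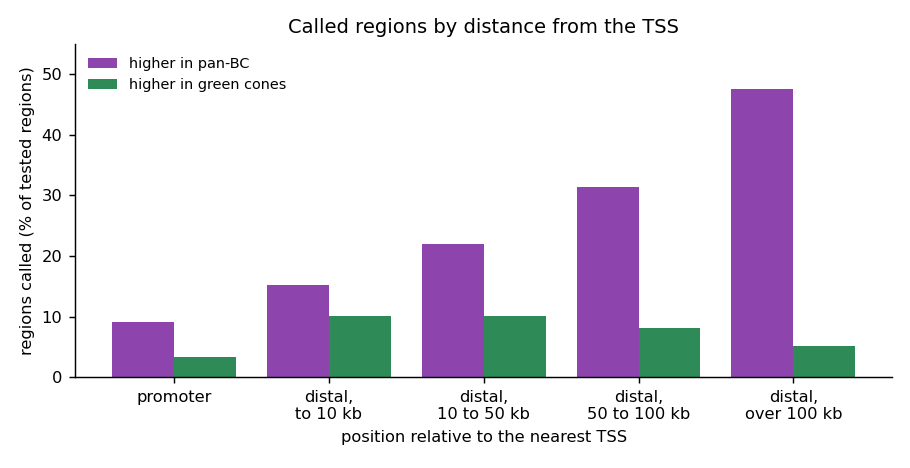
Percentage of tested regions called higher in pan-BC (purple) and in green cones (green), by position relative to the nearest TSS. The purple bars climb from 9.08% at promoters to 47.6% beyond 100 kb, while the green bars stay between 3.33% and 10.2%.

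The widest gaps in favour of pan-BC, taken among called regions with at least 100 normalized counts in the higher population, were at distal regions assigned to *Mir6379*, *Ccser1*, *Epha7*, *Pcdh9* and *Foxp2*. The region 52114 bp downstream of the *Mir6379* start had 413 and 614 normalized counts in pan-BC and 3.84 and 0 in green cones (adjusted p = 1.0e-06 by limma). At the *Ccser1* region the pan-BC libraries had 182 and 268 normalized counts and neither green cone library had a read, so pan-BC was at least 69.0-fold higher against a floor of 3 reads per library (adjusted p = 9.6e-07 by limma). *Epha7*, an ephrin receptor, and *Pcdh9*, a protocadherin, are cell-surface proteins of neurons. The *Epha7* region had 178 and 243 normalized counts and the *Pcdh9* region 165 and 263, again with no read in either green cone library, for at least 64.5-fold and 65.5-fold higher levels. Pan-BC also had 170 and 250 normalized counts at an intronic *Foxp2* region without a green cone read (at least 64.3-fold higher). Of these 5 regions, that of *Ccser1* had 119 and 53.5 normalized counts in OFF-BC, that of *Mir6379* 201 and 119, and the other 3 had 6.81 to 31.0, whereas ON-BC had 264 to 826 in all 5. Among the 5 genes, RNA of *Epha7* averaged 7360 normalized counts in pan-BC and 193 in blue cones, RNA of *Pcdh9* 8662 and 71.3, and RNA of *Ccser1* 198 and 218. *Foxp2*, a forkhead factor, averaged 1.22 in pan-BC and 0 in blue cones.

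In the other direction the widest gaps were at regions assigned to *Hspb1*, *Rgs22*, *Mir7688*, *Tbc1d22a* and *Larp1*. The *Hspb1* region, 5353 bp past the start of this small heat shock protein gene, had 114 and 124 normalized counts in green cones and no read in pan-BC, at least 57.8-fold lower there (adjusted p = 2.3e-06 by limma). An intronic region of *Rgs22* had 96.0 and 123 normalized counts in green cones and no read in pan-BC, at least 53.2-fold lower. For *Tbc1d22a* the values were 161 and 168 in green cones against 4.80 and 0, and for *Larp1* 244 and 294 against 8.00 and 1.14. The *Mir7688* region had 101 and 142 normalized counts in green cones and 1.60 and 0 in pan-BC. Rods and blue cones were open at all 5 regions (42.1 to 403 and 56.99 to 226 normalized counts), and OFF-BC had 2.69 to 68.7.

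Some of the genes with the most called regions had calls in 1 direction only. A nearest gene was assigned to each region, giving 20803 genes, of which 6803 had regions higher in pan-BC alone, 2835 in green cones alone, 2146 in both directions and 9019 in neither. *Celf4* had the most regions higher in pan-BC, 39 of 92, and 1 higher in green cones. *Cntnap2*, a neurexin-family adhesion protein, had 37 of its 51 regions higher in pan-BC and 1 in green cones, *Lsamp* 35 of 49, *Lrrc4c* 32 of 40, *Pcdh9* 30 of 36 and *Cdh9*, a cadherin, 27 of 31, with none of the last 4 having a region higher in green cones. In the other direction *Dscam*, an adhesion protein, had 17 of 36 regions higher in green cones, *Casz1*, a zinc-finger factor, 12 of 31 and *Jazf1* 13 of 40, with none higher in pan-BC. *Ntm* had the most, 20 of 128 higher in green cones, but also 15 higher in pan-BC. *Cdh13* had 15 of 48 higher in green cones and 2 in pan-BC, and *Elfn1* 13 of 30 and 1. Genes with many regions are also genes with long flanks, and the counts are not corrected for this.

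Regions of bipolar transcription factors were more open in pan-BC. Over 20 such genes, 96 of 232 tested regions (41.4%) rose in pan-BC, against 24.1% of all regions, 5 (2.16%) rose in green cones, against 8.00%, and the median log2 fold change was 1.95 against 0.44. *Isl1*, a LIM homeodomain factor of ON bipolar cells, had 17 of 23 regions higher in pan-BC and none in green cones. Its promoter region had 267 and 365 normalized counts in pan-BC, 6.92 and 5.63 in green cones (log2 fold change 5.43, SE 0.60, adjusted p = 3.2e-05 by limma). The promoter of *Neurod4*, a bHLH factor, had 138 and 125 against 4.61 and 8.45 (log2 fold change 4.19, SE 0.41). *St18*, a zinc-finger gene, had 92.8 and 177 at its promoter against 4.61 and 5.63, and 14 of its 15 regions were higher in pan-BC. The most open region of *Vsx1*, a homeodomain factor of OFF cone bipolar cells, lay 29155 bp before the TSS and had 41.6 and 67.8 normalized counts in pan-BC and 0 and 1.41 in green cones, where 1 read was counted. The 2 groups of libraries did not overlap at any of these 4 regions, as was so at all called regions and at 74.3% of those not called. A few regions assigned to bipolar genes went the other way, among them a region 48793 bp before *Bhlhe23* with 80.8 and 69.0 normalized counts in pan-BC and 254 and 201 in green cones (log2 fold change -1.58, adjusted p = 0.026 by limma). Its call was lost without pan-BC library 2 (adjusted p = 0.14, limma) or green cone library 1 (adjusted p = 0.19, limma) and with GC content levelled (adjusted p = 0.20, limma).

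*Otx2* is made by both classes and carries the GFP insertion of the bipolar mice. Its promoter region 38 bp past a TSS had 130 and 162 normalized counts in pan-BC and 42.3 and 23.9 in green cones (log2 fold change 2.15, SE 0.30, adjusted p = 0.0037 by limma). A second promoter region, 76 bp past another TSS, leaned the other way and was not called. It had 24.0 and 8.55 in pan-BC and 43.8 and 47.9 in green cones (log2 fold change -1.60, SE 0.63). Of the 14 *Otx2* regions 2 were called, both higher in pan-BC. The most open *Otx2* region, 53637 bp past the TSS, had 122 and 112 in pan-BC and 148 and 99.99 in green cones and was not called, with a direction that turned when pan-BC library 2 or green cone library 1 was left out. The promoter call was lost with blue and green cones fitted as 1 level (adjusted p = 0.087, limma) and without green cone library 2 (adjusted p = 0.069, limma). RNA of *Otx2* averaged 9955 normalized counts in pan-BC and 7034 in blue cones, a log2 difference of 0.50 that did not pass the test.

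Genes of the ON cascade, by which the metabotropic glutamate receptor mGluR6 closes TRPM1 channels in ON bipolar cells, were split. Of 81 regions of 11 genes, 19 (23.5%) were higher in pan-BC and 9 (11.1%) in green cones, near the 24.1% and 8.00% of all regions, with a median log2 fold change of 0.32. *Trpm1* had 5 of 7 regions higher in pan-BC, and its promoter had 80.0 and 99.2 normalized counts against 1.54 and 5.63 in green cones (log2 fold change 4.46, SE 0.62, adjusted p = 2.7e-04 by limma). Its most open region, in an intron 9800 bp past the TSS, had 169 and 231 against 59.2 and 85.9 and was not called (adjusted p = 0.16 by limma), although edgeR's glmTreat called it (adjusted p = 0.022). *Gpr179*, the scaffold of the cascade, had 154 and 132 against 6.15 and 7.04 at its promoter (adjusted p = 0.0017 by limma). *Grm6*, which encodes mGluR6, had a single called region of 5, centered 186 bp past the TSS, with 34.4 and 30.8 normalized counts in pan-BC and 4.61 and 2.82 in green cones (log2 fold change 2.86, adjusted p = 0.0090 by limma). Its call was lost without pan-BC library 1 (adjusted p = 0.054, limma). The same region had 303 and 384 normalized counts in the ON-BC libraries and 13.5 and 16.6 in OFF-BC, so pan-BC lay far below ON-BC. The labels give the same genotype to all 3, but the study's own sample table gives pan-BC without the *Grm6* reporter. The part of this reporter in the ON-BC and pan-BC values was not tested.

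*Lrit3* and *Gnb5* had regions higher in green cones. The *Lrit3* promoter had 8.00 and 16.5 normalized counts in pan-BC and 209 and 189 in green cones (log2 fold change -3.99, SE 0.70, adjusted p = 0.0019 by limma), and 4 of its 6 regions were higher in green cones. LRIT3 is known as a protein of photoreceptor terminals that organizes the TRPM1 complex on the opposite side of the synapse. *Gnb5*, a G-protein beta subunit of RGS complexes in both cell classes, switched between neighbouring regions. Centered 82 bp past a TSS, its promoter had 253 and 270 normalized counts in pan-BC and 71.5 and 74.6 in green cones (log2 fold change 1.82, SE 0.20). A region 2504 bp past a TSS of the gene, in an intron, had 31.2 and 39.3 in pan-BC and 354 and 318 in green cones (log2 fold change -3.22, SE 0.23, adjusted p = 4.3e-06 by limma). RNA of *Gnb5* averaged 14339 normalized counts in pan-BC and 10673 in blue cones, with no call.

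Markers of bipolar types were also more open in pan-BC. Over 20 genes, 101 of 222 regions (45.5%) were higher in pan-BC, against 24.1% of all regions, and 10 (4.50%) in green cones, against 8.00%, with a median log2 fold change of 2.16 against 0.44. At the *Cabp5* promoter, which drives a calcium-binding protein of rod and some cone bipolar cells, pan-BC had 152 and 210 normalized counts and green cones 1.54 and 2.82 (log2 fold change 5.85, SE 0.44, adjusted p = 1.8e-06 by limma). *Pcp2*, a marker of rod bipolar and some ON cone bipolar cells, had 88.8 and 82.7 against 1.54 and 0. A region 69971 bp before *Grik1*, a kainate receptor subunit of OFF bipolar cells, had 85.6 and 120 against 3.07 and 0, and all 6 regions of the gene were higher in pan-BC. *Erbb4*, a neuregulin receptor, had its most open region in an intron, with 150 and 210 against 1.54 and 0, and 12 of its 17 regions were higher in pan-BC. The promoter of *Prkca*, the classical rod bipolar marker, was not called, with 195 and 141 normalized counts in pan-BC and 188 and 223 in green cones. Its log2 fold change was -0.30 (SE 0.20), and it turned to 0.15 when GC content was levelled. Of the 23 regions assigned to *Prkca*, 4 in introns were higher in pan-BC and 3 in green cones. The first share is below the 24.1% of all regions and the second above the 8.00%. RNA of *Prkca* averaged 5466 normalized counts in pan-BC and 163 in blue cones.

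**Figure D3:**
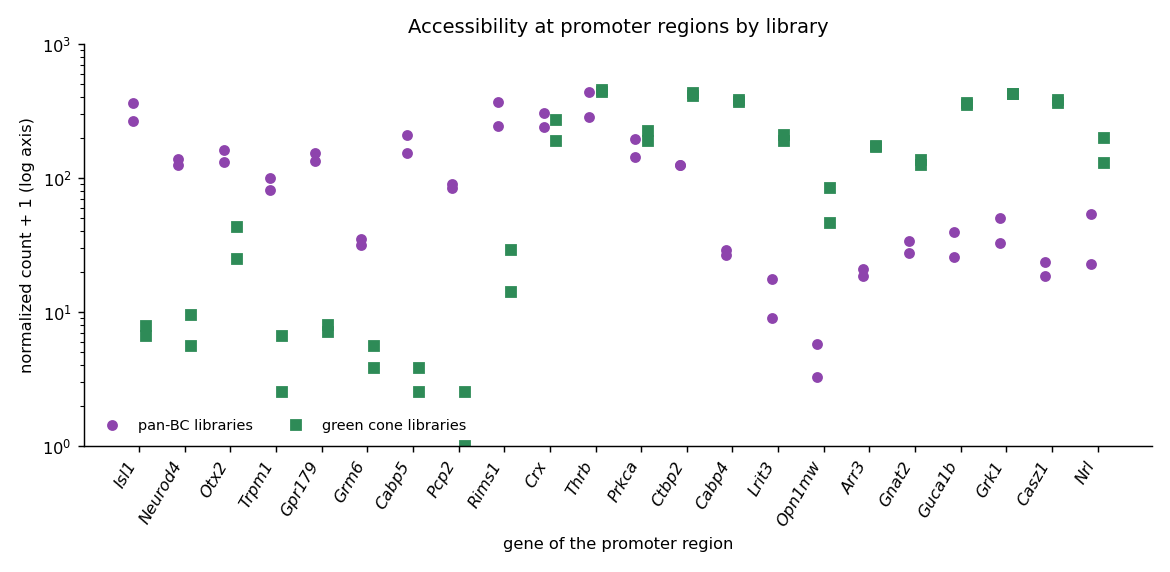
Normalized counts plus 1 (log axis) at 22 regions at promoters (that of *Grm6* is centered 186 bp past the TSS) in each pan-BC library (purple circles) and green cone library (green squares). Genes are placed by direction and not by class. Those on the left, from *Isl1* to *Rims1*, have pan-BC above green cones. *Crx*, *Thrb* and *Prkca* have overlapping or neighbouring values, and those on the right, from *Ctbp2* to *Nrl*, have green cones above pan-BC. *Otx2* on the left is made by both classes, and *Rims1* on the left and *Ctbp2* on the right are from the ribbon synapse list.

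Genes of cone phototransduction, the enzymes and channels that turn light into a change of membrane current, were more open in green cones than in pan-BC. Over 20 genes, 52 of 153 regions (34.0%) were higher in green cones, against 8.00% of all, 13 (8.50%) in pan-BC, against 24.1%, and the median log2 fold change was -1.29. Of 22 promoters in this list, 17 were higher in green cones and none in pan-BC. The 52 regions had medians of 132 and 119 normalized counts in rods and 106 and 103 in green cones, so their openness was not particular to cones. *Opn1mw*, the medium-wave opsin that defines green cones and whose reporter was sorted, had 4.80 and 2.28 normalized counts at its promoter in pan-BC and 83.8 and 45.1 in green cones (log2 fold change -3.84, SE 0.85, adjusted p = 0.0090 by limma). The call was lost without pan-BC library 2 (adjusted p = 0.083, limma) and without green cone library 1 (adjusted p = 0.080, limma). Upstream of *Opn1mw*, the region printed above had 9.60 and 7.98 in pan-BC and 103 and 101 in green cones (adjusted p = 1.6e-04 by limma), and 170 and 193 in rods, which do not make this opsin. At the promoter itself rods had 1.56 and 0. *Arr3*, cone arrestin, had 20.003 and 17.7 against 169 and 173 (log2 fold change -3.12, SE 0.34), and *Pde6h*, the inhibitory subunit of the cone phosphodiesterase, 11.2 and 12.5 against 114 and 138 (log2 fold change -3.30). The promoters of *Guca1b*, a guanylate cyclase activator, with 24.8 and 38.8 against 359 and 351, and of *Grk1*, opsin kinase, with 49.6 and 31.9 against 423 and 421, had the highest levels of these.

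Other cone genes passed by less. *Gnat2*, cone transducin, had 32.8 and 26.8 normalized counts at its promoter in pan-BC and 124 and 135 in green cones (log2 fold change -2.09, SE 0.34, adjusted p = 0.010 by limma), and lost the call without pan-BC library 2 (adjusted p = 0.073, limma) or green cone library 2 (adjusted p = 0.060, limma). *Opn1sw*, short-wave opsin, had 22.4 and 23.9 against 121 and 100 (log2 fold change -2.20, adjusted p = 0.025 by limma), and lost the call without any 1 of the 4 libraries (adjusted p = 0.065 to 0.13, limma). OFF-BC had 112 and 106 at this promoter and ON-BC 11.9 and 2.93. *Cngb3*, the beta subunit of the cone cyclic nucleotide-gated channel, went the other way, with 3 of 8 regions higher in pan-BC and none in green cones. Its most open region, in an intron 52228 bp past the TSS, had 137 and 206 normalized counts in pan-BC and 27.7 and 16.9 in green cones (log2 fold change 2.90, SE 0.52, adjusted p = 0.0049 by limma), and lost the call without pan-BC library 2 (adjusted p = 0.067, limma) or green cone library 2 (adjusted p = 0.061, limma). RNA of *Cngb3* was nonetheless lower in pan-BC, at 1126 normalized counts on average against 25581 in blue cones.

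Photoreceptor transcription factors divided into those open in both classes and those more open in green cones than in pan-BC. Of 311 regions of 20 genes, 77 (24.8%) were higher in green cones, against 8.00% of all regions, and 30 (9.65%) in pan-BC, against 24.1%, with a median log2 fold change of -0.98. Medians over the 77 regions were 131 and 150 normalized counts in rods and 96.0 and 87.3 in green cones. *Crx*, a K50 homeodomain factor of photoreceptors and bipolar cells, had no called region of 5, and its promoter had 238 and 304 normalized counts in pan-BC and 268 and 189 in green cones. *Thrb*, the thyroid hormone receptor that specifies green cones, had 283 and 436 at its most open promoter against 436 and 456 (log2 fold change -0.34, SE 0.19, not called, and 0.10 with GC content levelled). Around this promoter, however, 12 of the 55 *Thrb* regions were higher in green cones and 6 in pan-BC. A second promoter region, 11 bp before another TSS, had 6.40 and 6.84 in pan-BC and 46.1 and 57.7 in green cones (log2 fold change -2.79, adjusted p = 0.027 by limma). That call was lost without any 1 of the 4 libraries (adjusted p = 0.067 to 0.11, limma), with blue and green cones as 1 level (0.14), with a pseudocount of 0.5 (0.061) and with GC content levelled (0.062). An intronic region 17791 bp before a *Thrb* TSS had 8.00 and 5.70 in pan-BC and 146 and 145 in green cones, and another 47673 bp past a TSS had 76.8 and 81.0 against 7.68 and 2.82. *Casz1*, a zinc-finger repressor of photoreceptors, had 17.6 and 22.8 normalized counts at its promoter in pan-BC and 379 and 363 in green cones (log2 fold change -4.14, SE 0.26, adjusted p = 1.2e-06 by limma). Outer segment and matrix genes had 67 of 200 regions (33.5%) higher in green cones, against 8.00% of all, and 20 in pan-BC. The 67 regions had medians of 224 and 204 normalized counts in rods and 119 and 115 in green cones. Of the promoters of outer segment and matrix genes, 19 of 27 were higher in green cones, against 3.33% of all promoters, and none in pan-BC.

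Rod genes were also more open in the single-sorted green cone libraries than in pan-BC. Of 83 regions of 14 rod genes, 30 (36.1%) were higher in green cones, against 8.00% of all regions, and 1 in pan-BC, with a median log2 fold change of -1.86. A region of *Nrl*, the rod-determining factor, 2978 bp past its TSS, had 12.002 and 19.96 in pan-BC, 234 and 169 in green cones and 674 and 682 in rods, and no read in the blue cones, which come from *Nrl* knockout mice. With blue and green cones fitted as 1 level its log2 fold change turned from -3.60 to 0.22. Over the 30 rod-gene regions the medians were 490 and 479 in rods, 150 and 103 in green cones, 29.8 and 34.7 in blue cones and 14.8 and 12.8 in pan-BC. Summed RNA of the 14 rod genes was 51620 to 61994 per pan-BC library and 3180634 to 4449589 in rods. The part of rod cells in the green cone values was not tested beyond the peak lists that follow.

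Double-sorted green cones, 2 libraries from day 56 with peak lists alone, gave values outside the fit. Of the regions higher in green cones, 6467 of 8680 (74.5%) were overlapped by at least 1 bp by a peak of double-sorted library 3 and 5320 (61.3%) by a peak of library 4. Of the regions higher in pan-BC, 2045 of 26183 (7.81%) and 850 (3.25%) were, and of all tested regions 40.9% and 28.5%. Neither library had a peak at 91.5% of the regions higher in pan-BC and 20.3% of those higher in green cones. In the gene lists, 38 of the 52 green cone regions of cone phototransduction genes and 56 of the 77 of photoreceptor factors had a peak in at least 1 double-sorted library, and 12 of the 30 of rod genes did. The libraries held 43221 and 29410 peaks, so a missing peak can reflect depth as well as closed chromatin, and no test was made.

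Synaptic genes as a list were called about as often as all regions, with members in both directions. Over 20 genes of the ribbon synapse, the vesicle-holding structure of photoreceptors and bipolar cells, 55 of 278 regions (19.8%) were higher in pan-BC, against 24.1% of all, and 28 (10.1%) in green cones, against 8.00%, with a median log2 fold change of 0.087. *Rims1*, an active zone scaffold, had 244 and 371 normalized counts at its promoter in pan-BC and 13.1 and 28.2 in green cones (log2 fold change 3.90, SE 0.36, adjusted p = 1.8e-05 by limma), with 16 of 18 regions higher in pan-BC. *Rims2* had 96.0 and 193 against 7.68 and 16.9 at its promoter, although 6 of its 40 regions were higher in green cones and 4 in pan-BC. *Cacna1d*, which encodes the Cav1.3 calcium channel, had 90.4 and 85.5 against 18.4 and 5.63. *Cabp4*, a calcium-binding partner of the photoreceptor Cav1.4 channel, had 28.0 and 25.7 in pan-BC and 371 and 382 in green cones (log2 fold change -3.76, SE 0.24, adjusted p = 1.8e-06 by limma). *Ctbp2*, whose RIBEYE product builds the ribbon, had 124 and 125 against 430 and 410 (log2 fold change -1.75, SE 0.16), and 6 of its 26 regions were higher in green cones and none in pan-BC.

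Markers of other retinal cells were called higher in pan-BC at shares on both sides of the 24.1% of all regions. Müller glia genes had 19 of 61 tested regions (31.1%) higher in pan-BC, amacrine genes 8 of 47 (17.02%), horizontal cell genes 10 of 33 (30.3%), ganglion cell genes 3 of 33 (9.09%) and endothelial and microglial genes 11 of 45 (24.4%). Regions higher in green cones numbered 2, 5, 1, 3 and 3 in these lists, or 3.03% to 10.6% against 8.00% of all. Summed over the tested promoters of each list, normalized counts in pan-BC and green cones were 221 and 222 against 266 and 349 for Müller glia, 173 and 190 against 267 and 262 for amacrine cells, 432 and 464 against 559 and 689 for horizontal cells, 157 and 165 against 228 and 345 for ganglion cells, and 38.4 and 78.7 against 16.9 and 11.3 for endothelial cells and microglia. The last sum, over 2 promoters, was the only one of these 5 that was higher in pan-BC. Among housekeeping genes 4 of 35 regions (11.4%) were higher in pan-BC, 1 (2.86%) in green cones, and none of their 11 promoters was called, against 9.08% and 3.33% of all promoters. Summed RNA per library was 2178 to 2872 normalized counts in pan-BC and 2150 to 3513 in blue cones for Müller glia genes. For amacrine genes it was 683 to 791 and 1373 to 1600, and for horizontal cell genes 3381 to 4062 and 54.6 to 90.3. For ganglion cell genes it was 367 to 387 and 182 to 226, and for endothelial and microglial genes 49.4 to 64.9 and 261 to 396. The bipolar factors summed to 106097 to 117685 in pan-BC. Of the 8 ganglion cell genes only 1, *Isl2*, was at 0 in all pan-BC libraries. The part of other retinal cells in the called regions was not tested.

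Regions on the X chromosome stood apart from the rest. Of 2467 X regions, 1006 (40.8%) were higher in pan-BC and 62 (2.51%) in green cones, against 23.8% and 8.12% of autosomal regions, and the median log2 fold change was 1.85 against 0.41. Single autosomes varied widely, from 12.2% higher in pan-BC and a median of -0.27 on chromosome 11 to 32.1% and 1.11 on chromosome 3. X regions held 21909 and 23993 of every 1000000 counted reads in the pan-BC libraries, 18811 to 25019 in ON-BC and OFF-BC, 13571 and 13108 in green cones and 12666 to 14736 in rods and blue cones. At X promoters the median log2 fold change was 0.82, with 107 of 522 higher in pan-BC and 6 in green cones. On the Y chromosome, with 24 regions, 78.0 and 134 of every 1000000 reads lay in pan-BC and 164 and 111 in green cones. The sex of the mice was not given in the sources used here, and its part was not tested.

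The called regions sorted the other 4 populations by class, with OFF-BC between the rest. In libraries that did not enter the contrast, regions higher in pan-BC had medians of 53.8 and 60.03 normalized counts in ON-BC and of 25.6 and 20.4 in OFF-BC, while rods had 0 and 0.678 and blue cones 2.59 and 1.45. Regions higher in green cones had medians of 5.97 and 5.86 in ON-BC and of 16.2 and 17.5 in OFF-BC, while rods had 51.4 and 53.9 and blue cones 49.2 and 52.8. The difference between ON-BC and OFF-BC was tested in the same fit, which called 4972 regions (4.58%) higher in ON-BC and 3038 (2.80%) higher in OFF-BC. Among the regions higher in pan-BC, ON-BC was higher than OFF-BC at 3859 (14.7%) and lower at 19, and among those higher in green cones it was higher at 13 and lower at 1642 (18.9%). With the replicate number as a block within ON-BC and OFF-BC, whose same-numbered libraries were of the same age, the 2 larger counts were 3940 and 1732. Without OFF-BC library 1 they were 2147 and 868, without ON-BC library 1 the first was 2264, and without ON-BC library 2 it was 1703. Read from the other side, 77.6% of all regions higher in ON-BC were higher in pan-BC, against 24.1% of all tested regions. Of those higher in OFF-BC, 54.0% were higher in green cones, against 8.00%. Pan-BC were sorted as all bipolar cells and so include ON cells, which limits what the first share can show. OFF-BC were sorted in 2 rounds and carried 112 and 106 normalized counts at the *Opn1sw* promoter and 48.5 and 41.9 at that of *Arr3*, against 22.4 and 23.9, and 20.003 and 17.7, in pan-BC, and the part of cone material in the OFF-BC values was not tested.

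**Figure D4:**
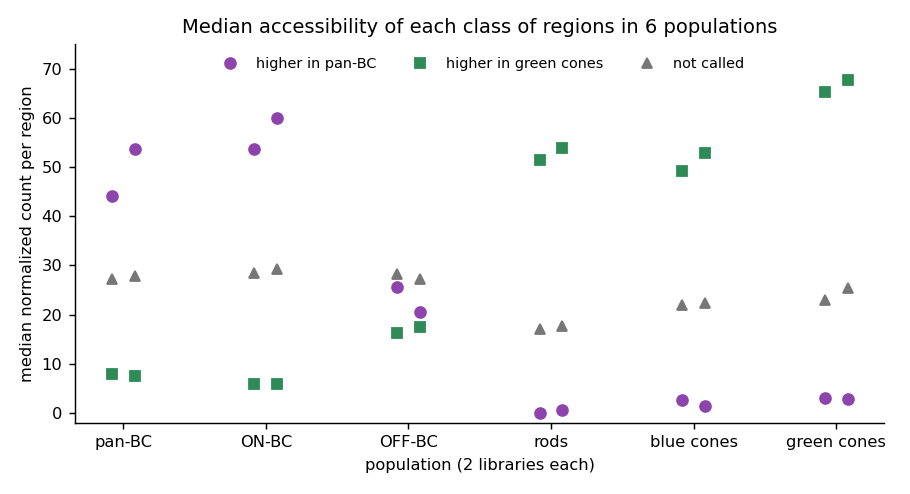
Median normalized count of regions higher in pan-BC (purple circles), higher in green cones (green squares) or not called (grey triangles), for the 2 libraries of each of 6 populations. Pan-BC regions are near 0 in all photoreceptor libraries, green cone regions are at 49.2 to 67.6 in all of them, and OFF-BC lies between ON-BC and the photoreceptors for both classes.

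RNA of the nearest gene was compared between pan-BC and blue cones, since the series holds no green cone RNA. Of 14043 genes tested, 3164 (22.5%) were higher in pan-BC and 1921 (13.7%) in blue cones. Near regions higher in pan-BC, 48.8% of the 14865 regions with a tested gene had a gene higher in pan-BC and 8.94% a gene higher in blue cones. Near regions higher in green cones the shares were 14.6% and 31.0% of 6160, and near regions not called 24.1% and 16.02%. Promoters gave a sharper split, with 64.6% of promoters higher in pan-BC having a gene higher in pan-BC RNA and 46.1% of promoters higher in green cones a gene higher in blue cone RNA. Shares in the opposite direction were 4.51% and 6.07%. At promoters not called, 17.1% had a gene higher in pan-BC RNA and 14.3% a gene higher in blue cone RNA. Genes with at least 3 regions higher in pan-BC and none in green cones numbered 1229, of which 663 (53.9%) were higher in pan-BC RNA and 81 (6.59%) in blue cones. Of the 309 genes with the opposite pattern, 11 (3.56%) were higher in pan-BC and 166 (53.7%) in blue cones. *Dscam* was 1 of these 11, with RNA of 1668 normalized counts on average in pan-BC and 166 in blue cones against 17 regions higher in green cones. The comparison uses another kind of cone and genes are not independent replicates, so these shares were given no test.

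Sequence strings differed in frequency between the classes of TSS-distal regions. The K50 string TAATCC lay in 42.1% of distal regions higher in green cones, in 22.0% of those higher in pan-BC and in 24.6% of all distal regions. CAGATG, an E-box, lay in 17.6% of the first, 36.6% of the second and 24.9% of all, and CAGCTG in 14.8%, 24.9% and 19.0%. Either of these E-boxes was held by 52.1% of distal regions higher in pan-BC and 30.0% of those higher in green cones, while any E-box (CANNTG, which includes both) was in 79.8% and 67.4%. The Q50 string TAATTA was in 4.94% of pan-BC regions, 8.33% of green cone regions and 5.91% of all distal regions, and TAATTG in 7.93%, 9.75% and 7.67%. A Q50 string without a K50 string was in 9.38%, 9.33% and 8.94%, and the 2 kinds together were in 2.96%, 7.40% and 3.73%. In the same order, the nuclear receptor string AGGTCA was in 15.1%, 25.3% and 17.05% and the AP-1 string TGANTCA in 7.07%, 13.1% and 7.84%. The ONECUT string ATCAAT was in 7.07%, 4.56% and 5.35%, the MAF string TGCTGA in 20.2%, 20.5% and 19.1%, and the NFI string TTGGC in 34.3%, 31.3% and 33.2%. The MEF2 pattern was in 4.49%, 5.60% and 4.39% and the SP/KLF string GGGCGG in 5.06%, 6.56% and 9.34%. The CTCF pattern was in 7.74%, 1.19% and 10.1%, and in 12.5% of regions not called.

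Strings and letters are linked to GC content, so shares were also taken within 3 groups of 33541, 30918 and 29741 distal regions, from low to high GC content, a check chosen after the data were seen. The K50 string was more frequent in green cone than pan-BC regions in each, at 48.6% and 28.2% in the lowest group, 43.1% and 19.0% in the middle and 32.4% and 9.74% in the highest. CAGATG was more frequent in pan-BC regions in each, at 32.5% and 15.7%, 41.0% and 19.1%, and 41.4% and 17.3%. Along the size of the difference, the K50 share was 40.3% of the 703 distal regions with a log2 fold change under -4. It was 16.04% of those between 1 and 2 and 26.0% of the 9813 over 4. Median GC content of these bins was 48.5%, 49.5% and 44%. The bins were not matched for GC content, so the higher K50 share at the largest pan-BC excess comes with lower GC content. The share with CAGCTG or CAGATG went from 31.0% to 40.2% and 53.6% over the same bins, and the nuclear receptor string from 36.3% to 14.3% and 15.8%. A match to letters is not a bound site, and the shares carry no test.

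**Figure D5:**
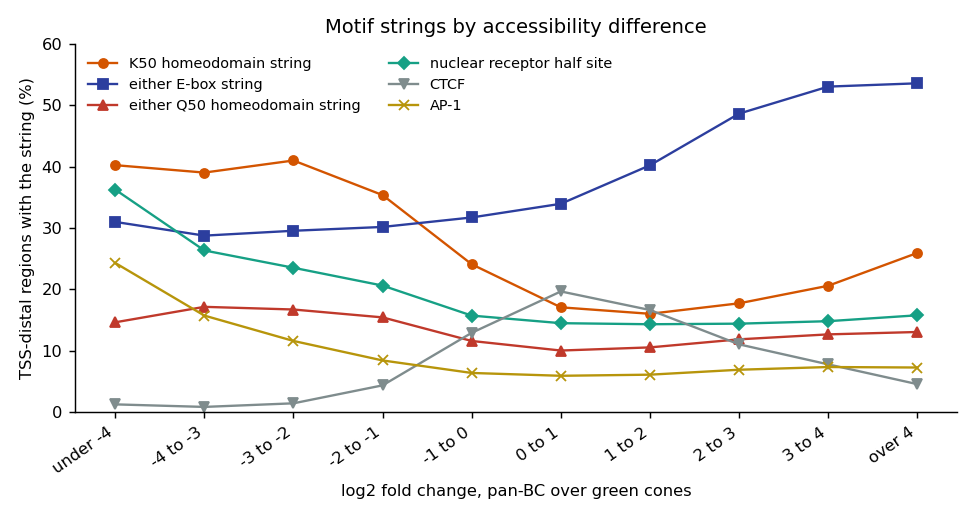
Percentage of TSS-distal regions holding each string, by bins of log2 fold change (pan-BC over green cones). The E-box line rises to 53.6% at the right, the K50 line is highest at the left and turns up again to 26.0% at the right, and the CTCF line peaks at 19.7% near no difference. The bins are not matched for GC content.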

How the data were processed

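ATAC-seq was compared between 2 pan-BC and 2 green cone libraries, within a table of 12 libraries. The authors aligned reads to GRCm38 (mm10), removed duplicates, kept nucleosome-free fragments, called peaks per library with MACS2 (version 2.1.1 in the submitters' processing notes) and counted reads in 200 bp regions. The signal values in the deposited region and gene tables are counts divided by 1 size factor per library, and all 1212862 region values above 0 were whole multiples of the value of 1 read (within 0.01 read). In the deposited peak lists the score, the fold enrichment and the -log10 p and q values are those of MACS2. Region starts were read as 0-based, which could shift printed positions by 1 bp.

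Regions were kept by filterByExpr on the recovered reads, and limma (3.58.1, R 4.3.3) was fitted to log2(normalized count + 1) of all 12 libraries with 1 level per population. The residual degrees of freedom were 6. treat tested pan-BC minus green cones against a log2 fold change of 1, with Benjamini-Hochberg adjustment and a threshold of 0.05. The script was tested on simulated data. Nearest genes came from 45702 RefSeq transcripts. RNA values were tested alike on genes with at least 10 normalized counts in 3 libraries; 27 gene names in date form were dropped. edgeR (4.0.16) and DESeq2 (1.42.0) on the recovered reads were alternatives. Floors of 3 reads cover counting error only. Genes named were the 5 called regions with the largest change in each direction (mean of at least 100, 1 per nearest gene), and genes of fixed lists by their most open region, with their promoter added; other *Thrb* regions, the genes with the most called regions and the *Isl1* sequence were chosen after their values were seen. The regions, lists and tests were chosen with earlier results of these data known. Replicate numbers of pan-BC and green cones came from different studies and did not pair the samples. For ON-BC and OFF-BC the numbers share an age, and a blocked fit, chosen after seeing the data, was run beside the unpaired fit. Results for some genes are not reported here.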

Additional observations from a re-analysis of the deposited data

How the results depend on the processing

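Counts of calls kept their order, with more regions higher in pan-BC than in green cones, under each of 18 alternatives, and no region called in both the reported fit and an alternative changed direction. The number higher in pan-BC (26183) and in green cones (8680) moved by over 1.5 times in some. Requiring a mean of at least 20 normalized counts over the 12 libraries, which left 63830 regions to test, gave 15182 regions higher in pan-BC. The edgeR test with a fold of at least 2, which does not test against that fold, gave 41119 and 20340, and edgeR's glmTreat gave 14174 higher in green cones. Leaving out 1 library at a time gave 15345 to 21410 regions higher in pan-BC and 5374 to 6274 higher in green cones, the lowest without pan-BC library 2 and without green cone library 2; a population left with 1 library is then assumed to vary like the others. With the replicate number as a block the counts were 26018 and 8619; deviations of same-numbered libraries correlated at 0.017, so the numbers do not pair samples. GC content levelled in each library, added after seeing the data, gave 23417 and 9259. DESeq2 gave 21916 and 7281. For ON-BC against OFF-BC, leaving out 1 library at a time, added after seeing the data, gave 1703 to 2722 regions higher in both pan-BC and ON-BC and 868 to 1576 higher in both green cones and OFF-BC. A replicate block there gave 3940 and 1732, and deviations of same-numbered libraries correlated at 1.7e-04.

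Peaks of double-sorted green cones at -log10 q of at least 10 covered 504 (library 3) and 259 (library 4) of the regions higher in pan-BC, and 4003 and 2980 of those higher in green cones. Within 10 kb of a TSS, 58.1% of regions higher in pan-BC had a gene higher in pan-BC RNA and 40.2% of those higher in green cones a gene higher in blue cone RNA. With promoters included, the K50 share in pan-BC regions was 21.1% and the CAGATG share 35.3%. Over 48 regions named in the text, 830 values under alternatives kept direction and call, 23 lost the call and 3, all of the *Trpm1* intron region, gained it. The other 6 turned direction: *Prkca* to 0.15 and the most open *Thrb* promoter to 0.10 with GC content levelled, the most open *Otx2* region to 0.0011 with scaling on promoters and to a range of -0.34 to 0.23 with 1 library left out, and *Nrl* to 0.22 with blue and green cones as 1 level. The cause was not tested, and the blue cones come from *Nrl* knockout mice, with no read in that region. Green cone library 2, with 4176776 reads, limits what can be seen at low levels.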
